A study of Drosophila melanogaster with 136 samples.

Results

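The adult hindgut of Drosophila melanogaster was compared with the other dissected adult tissues of a tissue atlas made on Affymetrix Drosophila Genome 2 arrays. The hindgut was represented by 4 of the 136 arrays, chosen by the title of the sample. They were set against 74 arrays of 19 other adult tissue groups, called tissues below. Each group counted once through its mean, the mated, virgin and redone mated spermatheca separately. Whole fly, head and S2 cells were left out, as were 1 thoracic muscle array and 1 array of the redone mated spermatheca.

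All flies were wild type, of the Canton S strain, and adults were 7 days old. Each hindgut array held RNA of 60 females and 60 males, dissected from behind the point where the Malpighian tubules join the gut and running through the rectum to the anus. The hindgut as sampled is therefore a mixture of ileum, rectum, their muscle coat and attached tracheae and nerves. The other tissues were midgut, crop, salivary gland, fat body, trachea, heart, thoracic muscle, carcass, wings, brain, thoracoabdominal ganglion, eye, ovary, 3 spermatheca groups, testes, accessory gland and ejaculatory duct. Midgut arrays held tissue of 25 females and 25 males. Crop arrays held tissue of 40 of each sex. Ovary and spermatheca came from females alone, and testes and ejaculatory duct from males alone. Hindgut RNA went through 1 round of amplification, as most tissues did. The first mated and virgin spermatheca groups had 2 rounds, 1 array of the redone set had 2 rounds, and eye and heart were labelled with another kit (IVT-Express). Adult Malpighian tubule was not analysed here. The larval hindgut, from feeding third-instar larvae with 30 larvae per array, gave 4 further arrays, set against 28 arrays of 7 other feeding larval tissues.

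The hindgut is the ectodermal hind part of the gut. Its epithelium is lined by a cuticle on the side of the lumen and wrapped in visceral muscle, and its rectal papillae take water and ions back from the mixture of urine and gut contents that the tubules and midgut deliver. Its identity is laid down in the embryo by a small set of transcription factors, with the T-box factor Brachyenteron, encoded by byn, at its centre.

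The arrays give a signal on a linear scale, with the trimmed mean of every array at 100.0. The 4 hindgut arrays correlated with each other at 0.990 to 0.992 over the 12509 probe sets tested, and at most at 0.866 with an array of another tissue. Crop was the tissue most like the hindgut, with a mean correlation of 0.864, and testes the least, with 0.393. These correlations run across probe sets and are descriptions only. Of 9544 genes tested, 1214 were higher in the hindgut than in the mean of the other tissues by at least 2-fold (12.7% of those tested), and 593 were lower (6.21%), both at a Benjamini-Hochberg adjusted p below 0.05 from limma. In 207 of the 1214 higher genes the hindgut had the highest mean of the 20 tissues, and in 410 it came next after 1 other tissue. Over all 9544 genes tested, the hindgut had the highest mean in 231. Over the 12509 probe sets tested, with or without a gene symbol, 11.7% were higher, 5.45% lower and 0.847% above every other tissue. The adjusted p alone, with no fold threshold, was below 0.05 for 65.3% of genes. The p-values measure the spread between arrays of a tissue, which the titles call biological repeats. In these bulk samples, fewer cells of a type and less RNA per cell cannot be told apart.

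A stricter test asked which genes were higher in the hindgut than in every other tissue taken singly. It was passed by 90 genes (0.943% of those tested) with at least a 2-fold excess over the next-highest tissue. The excess was at least 4-fold in 43 of them and at least 8-fold in 21. Other probe sets existed for 7 of the 90 genes, and of these 12 probe sets 8 were called higher, none lower, and 4 were not called or not tested. Above every other tissue were 6 of the 12. Of the 90 genes, 47 passed the filter on low signals through the hindgut alone. Midgut was the next-highest tissue for 20 of the 90, trachea for 10, wings for 9, crop for 8 and salivary gland for 7. The spread within the hindgut was small for most of them, with a median coefficient of variation of 7.74% and a range of 1.21% to 54.6%. The genes just inside the threshold, CG31371, CG7778 and Picot, stood 2.01-fold above the next tissue, and ringer and CG7179, just outside it, 1.93-fold.

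The gene with the largest excess was CG14949, known in the array annotation by its number alone. Its signal was 4793, 4446, 4510 and 4879 in the 4 hindgut arrays, against 21.2, 16.8, 10.5 and 19.3 in the crop, the next-highest tissue. No array of another tissue exceeded 21.2, and the median of the 74 was 2.57. On the log2(signal + 10) scale used throughout, the hindgut mean lay 8.38 ± 0.12 (SE) above the mean of the other tissues (adjusted p 1.4e-57) and 7.45 above the crop. The larval hindgut also gave signals for it, at 789 to 1018, with a log2 fold of 4.80 over the other larval tissues.

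CG9993 and CG17999 followed, neighbouring genes that both encode members of the acyl-CoA synthetase family, enzymes that activate fatty acids. CG9993 had signals of 2659, 2922, 2567 and 2444 in the hindgut, against 11.9, 18.3, 6.43 and 7.71 in the midgut, a log2 excess of 7.01. CG17999 had signals of 2023, 2196, 1858 and 1935 in the hindgut, against 13.2, 13.5 and 24.9 in the 3 thoracic muscle arrays, a log2 excess of 6.23. The hindgut arrays of both genes thus stood clear of every array of every other adult tissue. Their larval hindgut means were 180 and 54.6, with log2 folds of 2.55 and 1.61 over the other larval tissues. Whether a probe set binds transcripts of both neighbours was not tested.

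CG15870, CG32564 and CG13177 led in the adult hindgut and led again in the larva. CG15870 measured 3083, 2932, 2987 and 2921 in the adult hindgut, against 50.2 ± 21.1 in the ejaculatory duct (SD, n = 4). CG32564 measured 1993, 1867, 1835 and 1973, against 51.1 ± 19.9 in the trachea (SD, n = 4). CG13177 measured 2922, 2583, 2484 and 2202, against 89.4 ± 16.9 in the carcass (SD, n = 4). In the larval hindgut their means were 603, 4158 and 2576, and each was there above all 7 other larval tissues. CG6337, a cathepsin-like protease, measured 3267, 3330, 2977 and 3016 in the adult hindgut, against 75.7 ± 35.2 in the midgut (SD, n = 4). In the larva it was higher in the hindgut than in the mean of the other tissues, by 6.09 on the log2 scale, but the larval Malpighian tubule stood at 1916, against 1794 in the larval hindgut.

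**Figure D1:**
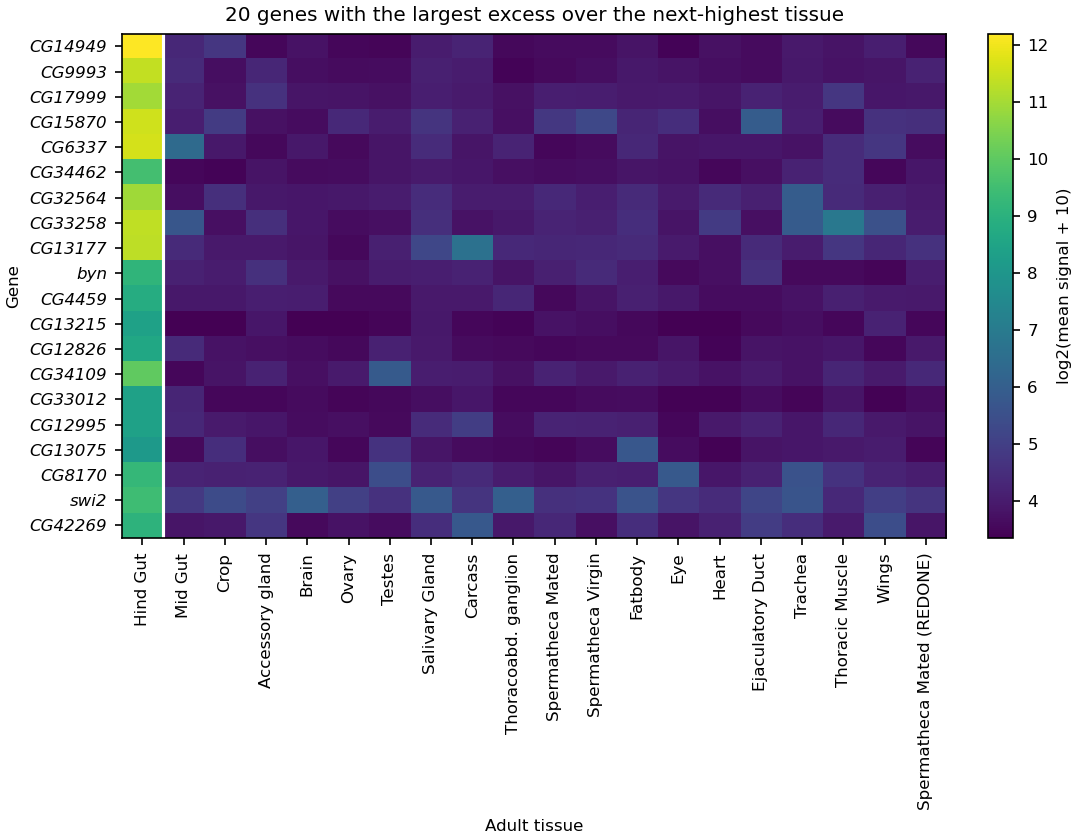
Mean signal of the 20 genes with the largest log2 excess over the next-highest adult tissue, as log2(mean signal + 10), with genes down the page and the 20 adult tissues across it, hindgut at the left. The hindgut column is the brightest in every row, with an excess over the next tissue of 9.90-fold for CG42269 to 175-fold for CG14949 on the scale of signal + 10.

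CG34462 and CG33258 behaved otherwise in the larva. CG34462 measured 693, 841, 685 and 712 in the adult hindgut, against at most 24.0 in any other adult array, and 8.14 to 10.9 in the larval hindgut. CG33258 measured 2256, 2807, 2627 and 2709 in the adult hindgut, against 0.618 to 8.17 in the larval hindgut. Of the first 20 genes, CG34109, CG12995 and CG42269 were also without a larval call. CG42269, of the SLC22 family of organic ion transporters, measured 498, 507, 505 and 576 in the adult hindgut, against 45 ± 13 in the carcass (SD, n = 4). The other 15 of the 20 were called higher in the larval hindgut as well. Among them CG8170, encoding a serine protease-like protein, measured 655, 581, 543 and 595 in the adult hindgut, against 46.1 ± 6.91 in the eye (SD, n = 4).

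The larval arrays were not used to choose the 90 genes. Over the 12207 larval probe sets tested, 10.8% were higher in the larval hindgut, 2.9% lower and 1.21% above every other larval tissue. Of these, 83 passed the larval filter, and 61 of the 83 (73.5%) were higher in the larval hindgut than in the mean of the other larval tissues, against 12% of all genes tested there. None of the 83 was lower, against 3.29% of all genes, and the other 22 had no call. Their median larval log2 fold was 2.68, against -0.08 over all genes. In the larva, 128 genes (1.38% of those tested) stood at least 2-fold above every other tissue, and 26 genes were in both sets, which is 28.9% of the adult and 20.3% of the larval set. Irk2, encoding a potassium channel, and CG3604, picked after its values were seen like the other genes singled out in this plot, had larval log2 folds of 6.59 and 6.58, near the top of the plot of larval against adult folds. CG34462, Alp2, encoding an alkaline phosphatase, CG11550 and CG6867 lie near its zero line.

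**Figure D2:**
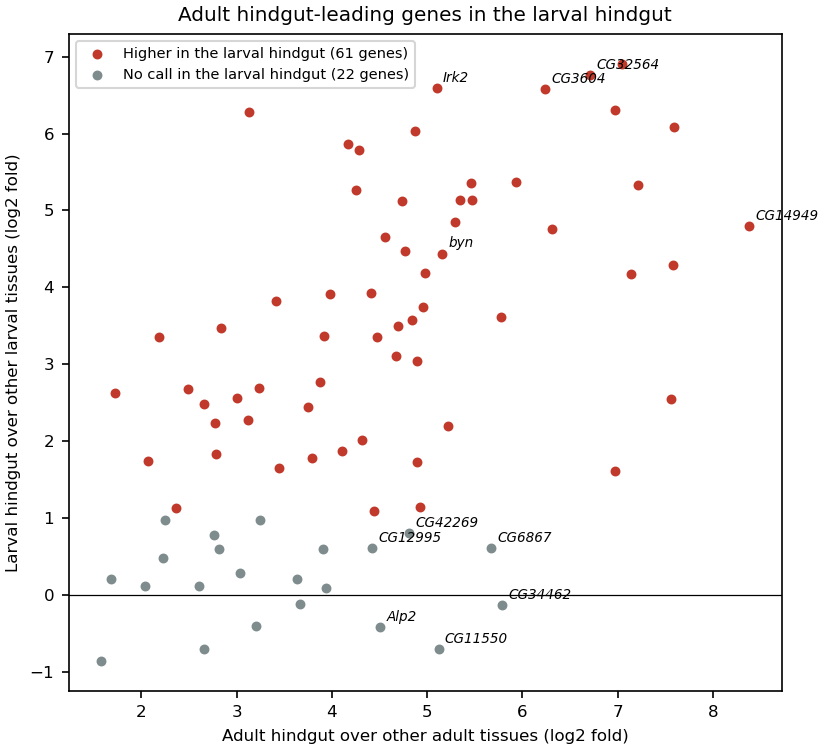
Log2 fold of the adult hindgut over the other adult tissues (x axis) and of the larval hindgut over the other larval tissues (y axis) for 83 of the 90 genes that lead in the adult hindgut. Red points are the 61 genes called higher in the larval hindgut and grey points the 22 without a call, CG34462 and Alp2 among them at -0.13 and -0.42.

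Some of the 90 genes are next to each other in the genome. The order of genes in the annotation gave 9 adjacent pairs among the 89 that could be placed. How many pairs other sets of tested genes would give was not counted. The pairs include CG14949 with CG1143, CG33258 with CG13075, CG33012 with CG13160 and, on the X chromosome, the run CG5070, CG32564, CG32563 and CG12995. Whether a probe set also binds transcripts of a neighbour was not tested for any pair. CG5070, CG32563 and CG13160 are named for their place alone. CG1143 measured 4299, 4231, 3762 and 3786 in the adult hindgut, against 496 ± 19.2 in the wings (SD, n = 4). In the X-linked run, CG5070 measured 103, 127, 258 and 85.9 in the adult hindgut, against 15.7 in the salivary gland, and 1594 in the larval hindgut. CG12995 had the opposite order of stages, with 333 in the adult and 14.1 in the larval hindgut. Chromosome arm 2L held 7.87% of the placed genes and 18.5% of the genes tested, arm 2R 27% and 20.6%, and arm 3L 27% and 19.5%. For arm 3R the shares were 24.7% and 24.9%, and for the X chromosome 13.5% and 15.8%.

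Hindgut specification factors were among the genes that set the tissue apart. Of 14 members tested, 9 were higher in the hindgut (64.3%, against 12.7% of all genes) and none was lower. Their median log2 fold was 1.78, against -0.09 over all genes. byn measured 554, 488, 573 and 578, against 13.9 ± 2.97 in the ejaculatory duct, the next-highest tissue by mean log2 value. The accessory gland averaged 14.2 ± 6.23 (SD, n = 4 each). No other adult array exceeded 20.4, and the log2 fold was 5.16 ± 0.16 (SE, adjusted p 8.2e-39). otp, encoding the homeodomain protein Orthopedia, measured 90.6, 86.1, 89.1 and 96.1 in the hindgut, against 18.7 ± 4.38 in the thoracoabdominal ganglion (SD, n = 4). By the brightest probe set of each gene, these were the members that exceeded every other adult tissue. Another otp probe set had a hindgut mean of 18.6 and a log2 fold of 1.12, and was called higher but not above every other tissue.

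The other factors were as high or higher in another adult tissue. fkh, the FoxA factor, measured 441, 448, 467 and 453 in the hindgut, and was higher still in salivary gland (804) and crop (478). cad, the Cdx factor of the posterior gut, measured 393, 425, 478 and 470, with 1270 in the ovary and 380 in the midgut. drm, of the odd-skipped family that patterns the hindgut, measured 315, 292, 315 and 313, with 915 in the ejaculatory duct. The midgut averaged 105 for fkh and 74.8 for drm. hh, the Hedgehog ligand, averaged 170 ± 17.9 in the hindgut and 181 ± 7.79 in the crop (SD, n = 4 each), which overlap, and 88.9 in the midgut. bin, the FoxF factor of the visceral mesoderm, bowl of the odd-skipped family and Dr, a homeobox factor, were also called higher, by 1.89, 1.67 and 1.01 on the log2 scale. The call for Dr was lost without hindgut array 3 (0.99) or array 4 (0.97), under quantile normalization (0.99), and without any 1 of 8 other tissues (0.85 without midgut or ovary to 0.97 without brain). Those for Dr and bin were lost with a pseudocount of 40 (0.59 and 0.89). Of 7 Notch and JAK/STAT genes tested, crb and Delta were higher (28.6%, against 12.7% of all genes), by 1.28 and 1.13. Delta had no call at a pseudocount of 40 (0.69). Stat92E, at 679 in the hindgut, had a log2 fold of 0.07 and no call.

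en and inv, the paired homeobox genes that mark the dorsal side of the embryonic hindgut, were near background in the adult. en measured 1.54, 5.69, 3.14 and 5.54 in the adult hindgut, against 213, 228, 235 and 262 in the larval hindgut. inv measured 0.674, 0.212, 2.57 and 3.39 in the adult hindgut, against 84.2, 63.0, 59.5 and 87.7 in the larval hindgut. In a fit of adult against larval hindgut, added after these values were seen, en differed by -4.13 ± 0.12 (SE, adjusted p 5.7e-09) and inv by -2.83 ± 0.14 (adjusted p 2.1e-07). In the same fit hh and Dr were higher in the adult hindgut, by 1.40 ± 0.11 and 2.16 ± 0.13, with adjusted p 6.3e-06 and 8.3e-07. Over all probe sets that fit called 8.25% higher and 7.18% lower in the adult. byn, with 548 in the adult and 351 in the larval hindgut, differed by less than 2-fold, as did fkh, cad and drm.

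**Figure D3:**
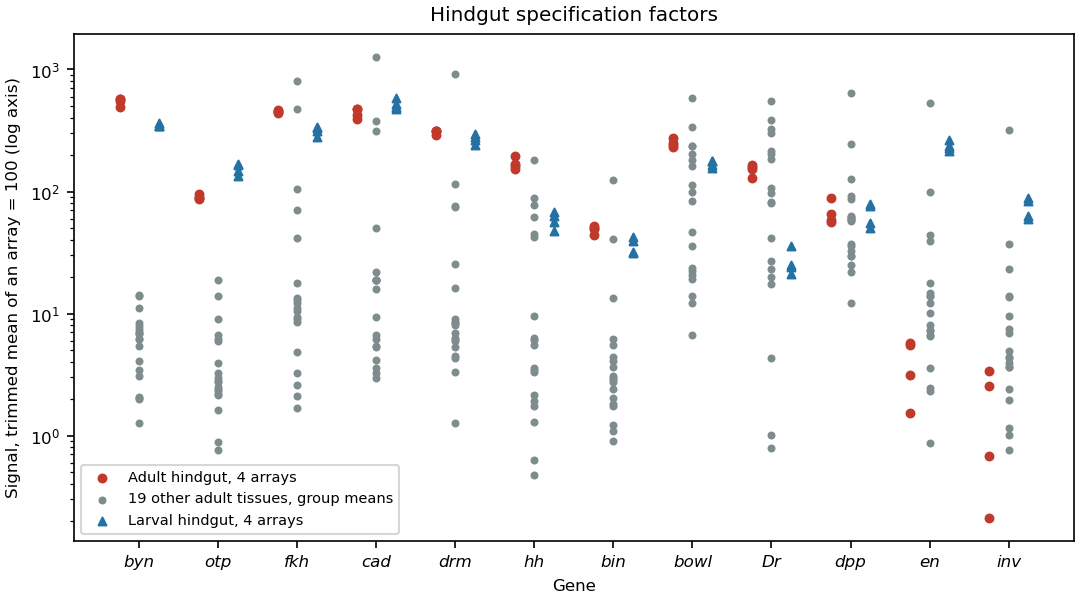
Signal of 12 hindgut specification factors (log axis, trimmed mean of an array = 100), with the 4 adult hindgut arrays in red at the left of each gene, the group means of the 19 other adult tissues in grey and the 4 larval hindgut arrays as blue triangles. byn and otp lie above all grey points in the adult, while en and inv lie at or below 5.69 in the adult hindgut and between 59.5 and 262 in the larval hindgut.

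Ion transport is the known work of the rectum, and its genes were often higher. Of 22 tested members of the sodium pump and cation transporter list, 12 were higher (54.5%, against 12.7% of all genes) and none lower. Their median log2 fold was 1.18. Nha1 and Nha2 encode sodium/proton antiporters. Nha1 measured 3282, 3097, 2883 and 2995 in the hindgut, against 1953, 2088, 2056 and 2329 in the salivary gland and a median of 4.21 over all other arrays, a log2 fold of 7.06 ± 0.13 (SE, adjusted p 1.3e-50). Nha2 measured 1733, 1689, 1575 and 1619, against 238 ± 20 in the virgin spermatheca (SD, n = 4). The groups of arrays do not overlap for either gene.

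NKCC, the sodium-potassium-chloride cotransporter, measured 3724, 3859, 3470 and 3808 in the hindgut, against 2733, 2765, 2826 and 2898 in the salivary gland, a log2 fold of 5.39 ± 0.17 over all tissues. Irk2, an inward rectifier potassium channel, measured 4618, 4676, 4195 and 4768, against 1723 ± 71.0 in the crop (SD, n = 4) and 117 in the midgut. It was also above every other tissue in the larva, with 3856 in the larval hindgut. nrv3, a beta subunit of the sodium pump best known from the nervous system and picked after its values were seen, measured 3018, 3109, 3168 and 3280 in the adult hindgut, and 6055 in the eye. The larval hindgut was near background for nrv3, at 6.76 to 9.68. Nhe1, a sodium/proton exchanger, did not pass, with a log2 fold of 0.30. In the larval hindgut 11 of 21 tested members of this list were higher and 2 lower. Over all genes tested in the larva, 12% were higher and 3.29% lower.

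Genes of the proton pump were mostly higher as well. Of 24 V-ATPase subunit genes tested, 15 were higher (62.5%, against 12.7% of all genes) and 2 lower. Their median log2 fold was 1.27, and the salivary gland had the highest summed signal. Vha100-2, an a subunit, measured 3552, 3313, 3254 and 3312 in the hindgut, with 6360 in the salivary gland and 1469 in the midgut. Vha100-5, another a subunit, measured 398, 352, 450 and 492, with 1519 in the midgut and a median of 10 over all other arrays. Vha44 and VhaAC39-1 had log2 folds of 2.06 and 1.97. The lower members were VhaAC45RP, highest in the eye, and VhaM9.7-a, highest in the ganglion, with hindgut means of 9.52 and 12.3. The call for VhaM9.7-a was lost without hindgut array 1 (-0.95) or array 3 (-0.99), at pseudocounts of 2 (-0.89) and 40 (-0.90), with brain and ganglion merged (-0.94), and without ganglion, brain, eye, wings or trachea (-0.76 to -0.94). Of the 32 measured subunit genes, 12 had a hindgut mean below 10.

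Anion channels, anion exchangers and carbonic anhydrases gave 10 higher and 3 lower of 22 tested, or 45.5% higher, against 12.7% of all genes. CAH9 and CAH1, carbonic anhydrases, had log2 folds of 3.81 and 2.15, with the salivary gland above the hindgut for both. Best1, a bestrophin chloride channel, measured 683, 571, 660 and 663 in the hindgut, against 551 ± 31.3 in the crop (SD, n = 4), which overlap. SecCl, encoding a ligand-gated chloride channel subunit, was lower, with a hindgut mean of 3.30 and 5333 in the salivary gland. Of 4 aquaporin genes tested, Drip was higher, with 466 ± 39.2 in the hindgut (SD, n = 4), 7135 in the salivary gland and a log2 fold of 1.84. Prip, with a log2 fold of 0.26, did not pass (adjusted p 0.055).

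**Figure D4:**
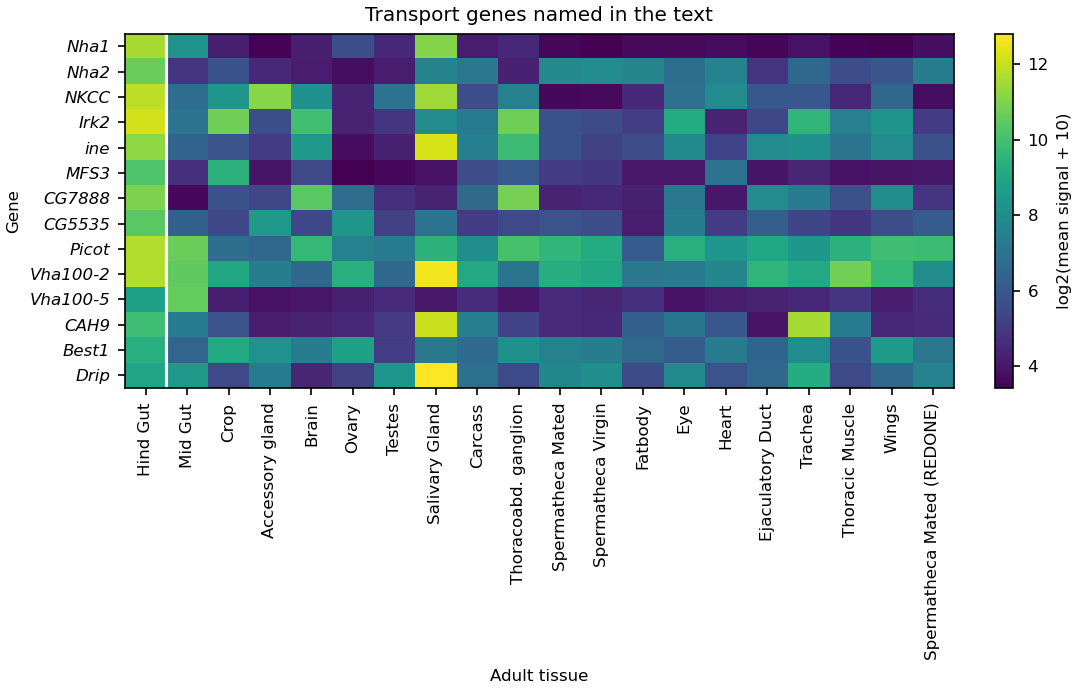
Mean signal of 14 transport genes named in the text, as log2(mean signal + 10), with genes down the page and the 20 adult tissues across it, hindgut at the left. Nha1, NKCC and ine are bright in hindgut and salivary gland, NKCC also in accessory gland (2245) and ine in the thoracoabdominal ganglion (917). Irk2 and MFS3 are bright in hindgut and crop, Irk2 also in the ganglion (1676) and brain (994), and Vha100-5 in hindgut and midgut.

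Amino acid, peptide and sugar transporters gave 15 higher and 5 lower of 34 tested, or 44.1% higher, against 12.7% of all genes. ine, of the neurotransmitter transporter family, measured 2506, 2374, 2309 and 2324 in the hindgut, with 4828 in the salivary gland and 74.5 in the midgut. MFS3, a major facilitator family member, measured 1194, 1161, 1247 and 1118, against 682 ± 11.2 in the crop (SD, n = 4). CG7888, an amino acid transporter of the SLC36 family, averaged 1995 ± 84.8 in the hindgut and 1854 ± 127 in the thoracoabdominal ganglion (SD, n = 4 each), which overlap, while the midgut stood at 2.25. CG5535, a cationic amino acid transporter, measured 1496, 1235, 1268 and 1325, against 339 in the accessory gland. Picot, of the sodium-dependent phosphate transporter family, measured 3581, 3248, 3136 and 3380, against 1653 in the midgut. CG1213, of the sugar transporter family, and Eaat2, of the excitatory amino acid transporter family, were lower, with hindgut means of 119 and 0.880. CG5535 and Picot belong to the 90 leading genes, as do Irk2 and Nha2.

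Other leading genes with a known role were picked after their values were seen. Pkg21D encodes a cGMP-dependent protein kinase and measured 484, 516, 483 and 446 in the hindgut, against 47.8 ± 7.45 in the eye (SD, n = 4). TrpA1, a cation channel known for heat and irritant sensing, measured 60.0, 47.4, 54.4 and 67.2, against 10.4 in the brain. ppk12, of the DEG/ENaC sodium channel family, measured 33.0, 40.3, 30.2 and 32.7, against 8.78 in the salivary gland. Zip89B, a zinc transporter, averaged 350 in the hindgut and 68.7 in the midgut. AhcyL2, of the adenosylhomocysteinase family, averaged 2204 in the hindgut and 281 in the wings. Smvt, of the sodium-dependent vitamin transporter family, varied between the hindgut arrays, at 125, 230, 248 and 196, and 1 array of another tissue reached 340. Alp2 was uneven as well, with 748 in array 4 and 288 to 359 in the others.

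A cuticle lines the hindgut lumen. Of 24 tested cuticle and chitin genes, 8 were higher (33.3%, against 12.7% of all genes) and 1 was lower. Chs2, a chitin synthase best known for the lining of the gut, measured 426, 457, 515 and 517 in the hindgut, against 316, 338, 323 and 328 in the midgut, which do not overlap. TwdlT, a Tweedle family cuticle protein, measured 348, 253, 271 and 383, against 82.2 ± 31.1 in the wings (SD, n = 4). snu, an ABC transporter of the cuticle barrier, averaged 1800 in the hindgut and 4455 in the wings, and knk, needed for chitin organisation, 187 in the hindgut and 344 in the ejaculatory duct. Cda5, a chitin deacetylase, was lower, at 10.1, with 266 in the wings, and had no call at a pseudocount of 40 (-0.63). serp, also a chitin deacetylase, did not pass in the adult, at 46.8, while the larval hindgut averaged 2012. In the larva 13 of 24 tested cuticle and chitin genes were higher in the hindgut and none lower. Over all genes tested in the larva, 12% were higher and 3.29% lower.

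Septate junction genes of both kinds had higher members. The smooth septate junction genes, which seal the epithelia of the midgut and the Malpighian tubules, were higher in all 3 members tested, and higher still in the midgut. Tsp2A measured 656, 682, 684 and 624 in the hindgut, with 2204 in the midgut and 11.2 in the crop. mesh averaged 590 ± 23.6 in the hindgut and 1680 ± 125 in the midgut, and Ssk 1428 ± 43.7 in the hindgut and 3590 ± 74.0 in the midgut (SD, n = 4 each). Of 20 pleated septate junction genes, which seal ectodermal epithelia, 8 were higher (40%, against 12.7% of all genes) and none lower. Their median log2 fold was 0.87. sinu, a claudin, averaged 616 ± 11.5 in the hindgut (SD, n = 4), with 676 in the crop and 86.7 in the midgut.

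Muscle genes were 15 higher (68.2%, against 12.7% of all genes) and 5 lower of 22 tested, with a median log2 fold of 2.48. TpnC73F, a troponin C, measured 2064, 2133, 2208 and 2172 in the hindgut, with 3414 in the crop, another muscle-coated gut part, and 244 in the midgut. Mp20, Act87E and bap were highest in the crop too. bap, the NK3 factor of the visceral mesoderm, measured 251, 213, 198 and 249 in the hindgut, with 585 ± 27.1 in the crop and 20.4 in the midgut. Mlc2, a myosin light chain, averaged 1331 in the hindgut and 8851 in the thoracic muscle. The flight muscle genes TpnC4 and Act88F were lower, with hindgut means of 3.05 and 11.5 and 12730 and 10827 in the thoracic muscle. Their calls were lost when the left-out thoracic muscle and spermatheca arrays were kept in, with log2 folds of -1.64 and -1.63.

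The receptors of gut-acting peptides and amines were mostly low. Of the 29 measured, 18 had a hindgut mean below 10. Of 21 tested, 4 were higher (19%, against 12.7% of all genes) and none lower, against 6.21%. Dh44-R2, a receptor of the diuretic hormone DH44, measured 108, 124, 127 and 129 in the hindgut, with 210 in the crop. Lkr, the leucokinin receptor, measured 50.8, 68.1, 67.9 and 43.0, with 109 in the ganglion, and 666 in the larval hindgut. CCHa1-R, the CCHamide-1 receptor, measured 37.3, 33.7, 38.8 and 37.7, against 21 in the ganglion. Pdfr, the receptor of the clock peptide PDF, averaged 95.6 in the hindgut and 286 in the crop. With a pseudocount of 40, Lkr, CCHa1-R and Pdfr had log2 folds of 0.83, 0.68 and 0.82 and no call.

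Immune genes were mixed, with 4 higher (18.2%) and 4 lower of 22 tested. Over all genes, 12.7% were higher and 6.21% lower. pirk, an inhibitor of the IMD pathway, averaged 462 in the hindgut and 1199 in the midgut, a log2 fold of 2.77. PGRP-LA and PGRP-LF, of the peptidoglycan recognition family, averaged 620 and 181 and were called higher by 2.43 and 1.42 on the log2 scale, PGRP-LF with no call at a pseudocount of 40. The antimicrobial peptide genes differed between the hindgut arrays. AttD measured 128, 159, 414 and 92.1, and was called higher. Drs, the antifungal drosomycin, measured 27.2, 90.9, 26.7 and 18.0, and was called lower. Def, the defensin gene, measured 11.6, 3.83, 86.4 and 7.13. Def was called lower, by 2.01 on the log2 scale, and without hindgut array 3 by 2.63. Array 3 was thus the highest for AttD and Def, and array 2 for Drs and for Mtk, the metchnikowin gene, picked after its values were seen, at 246.

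Digestive enzyme genes split into a part shared with the midgut and a part at background. Of 33 tested, 10 were higher (30.3%, against 12.7% of all genes) and none lower. zetaTry, a trypsin, measured 1123, 942, 1254 and 1303 in the hindgut and 1490, 1039, 1309 and 1860 in the midgut, which overlap. alphaTry, another trypsin, averaged 1268 in the hindgut and 7256 in the midgut, LysX, a lysozyme, 747 in the hindgut and 3367 in the midgut, and Mal-A2, a maltase, 624 in the hindgut and 2612 in the midgut. Other major midgut enzymes were near background in the hindgut. Jon25Bi averaged 4.86 in the hindgut and 5784 in the midgut, Jon65Ai 0.781 in the hindgut and 4675 in the midgut, and Mal-A1 12.2 in the hindgut and 6006 in the midgut. betaTry averaged 38.1 in the hindgut and 6246 in the midgut. The summed signal of the 5 midgut markers was 1201 to 1457 in the hindgut arrays and 27446 to 31142 in the midgut arrays. Of these markers, Jon25Bi and Jon65Ai had hindgut means below 10. The part of midgut tissue in the shared enzymes was not tested.

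Several genes with the largest fold over the mean of the other tissues were also high in the midgut. Acbp3, an acyl-CoA binding protein, measured 3751, 3190, 3047 and 3103 in the hindgut, with 5278 in the midgut and a median of 0.935 over all other arrays. Mur29B, a mucin-related protein gene, averaged 2960 ± 207 in the hindgut and 2678 ± 308 in the midgut (SD, n = 4 each). CG17475 and CG31267, serine protease genes, averaged 3078 and 2308 in the hindgut, against 1372 and 916 in the midgut. CG10911, CG31198 and CG9568 averaged 3638, 3581 and 3162 in the hindgut, and more in the midgut, at 5170, 5056 and 5436. CG11878 averaged 3496 in the hindgut and 1833 in the midgut. In the next tissue after these, Acbp3 averaged 137 in the ejaculatory duct, Mur29B 10.8 in the fat body, CG17475 5.73 in the fat body and CG11878 41.2 in the thoracic muscle. When the midgut was left out, 232 genes stood above every other tissue, and 142 of them only then. The midgut mean was above the hindgut mean in 134 of these 142.

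Cytochrome P450 genes gave 31 higher and 10 lower of 75 tested, or 41.3% higher, against 12.7% of all genes. Cyp49a1 measured 1387, 1365, 1224 and 1322 in the hindgut, against 304 in the ejaculatory duct. Cyp301a1, known from cuticle formation, measured 455, 506, 463 and 460, against 144 in the trachea. Cyp4aa1 averaged 232 in the hindgut and 399 in the crop, and Cyp312a1 336 in the hindgut and 5192 in the ejaculatory duct. Cyp18a1, which inactivates ecdysteroids, and Cyp305a1 were lower, with hindgut means of 19.4 and 18.5.

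**Figure D5:**
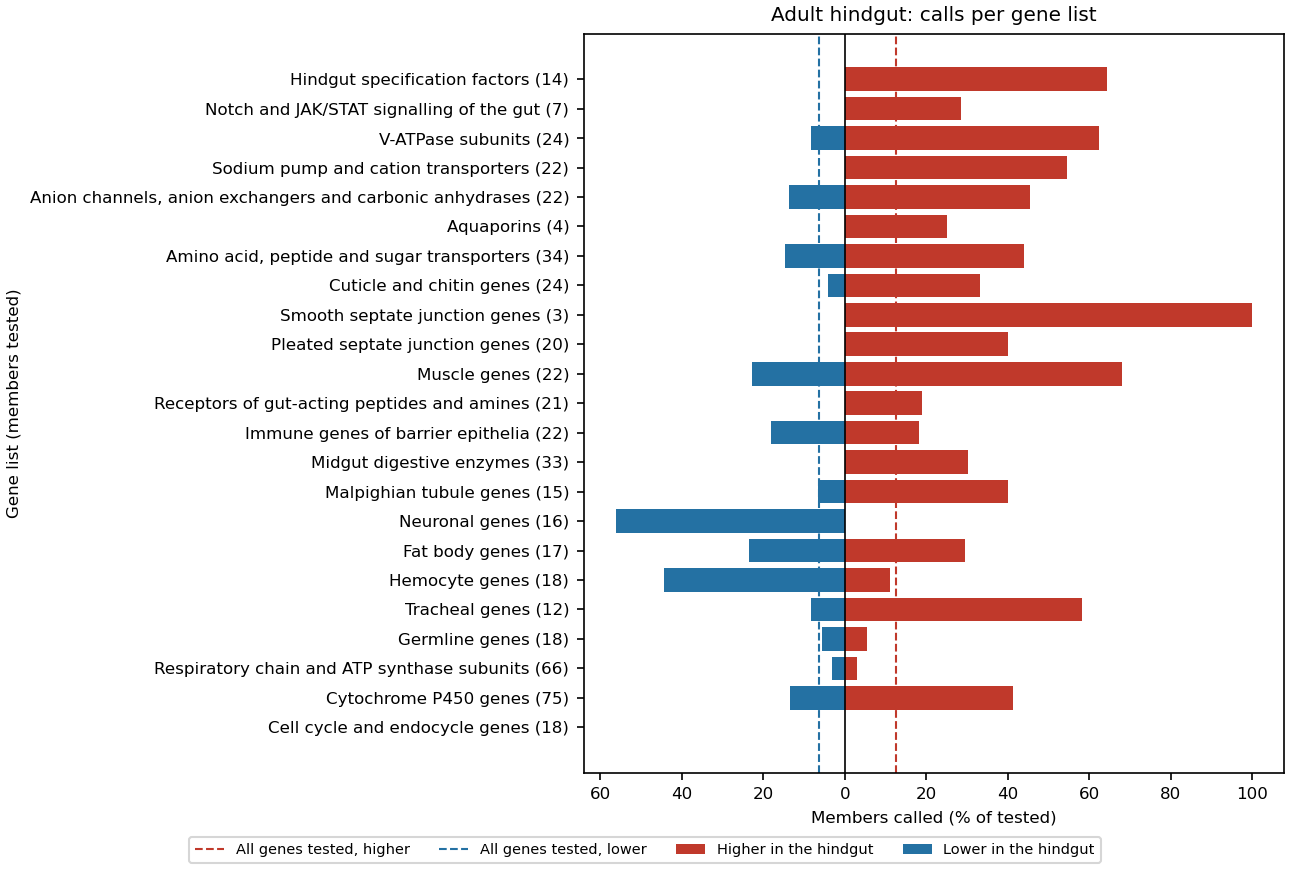
Share of tested members called higher (red, to the right) and lower (blue, to the left) in the adult hindgut for each gene list, with the number tested in parentheses. Dashed lines mark the shares over all genes tested, 12.7% higher and 6.21% lower.

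Lists of genes known from other tissues were set beside these results. Over all genes tested, 12.7% were higher and 6.21% lower. Neuronal genes were 9 lower and none higher of 16 tested. The neuronal markers summed to 77.2 to 126 in the hindgut, against 932 to 1574 in the brain. In the hindgut elav averaged 76.7, nSyb 20 and brp 0.988. With log2 folds of 0.4, -0.08 and -0.77, none of these markers was called. Hemocyte genes were 8 lower and 2 higher of 18, and the higher ones were the laminin genes LanB1 and LanB2. Hemocyte marker sums were 89.1 to 123 in the hindgut and 2598 to 2787 in the heart, with 3 of the 4 markers below 10 in the hindgut. Malpighian tubule genes were 6 higher and 1 lower of 15, and the tubule markers summed to 41.0 to 66.6 in the hindgut, against 4424 to 5589 in the larval tubule, with 1 of the 3 markers below 10. Female germline markers summed to 5.65 to 22.1 in the hindgut and 2991 to 3210 in the ovary, and male germline markers to 19 to 38.3 in the hindgut and 4852 to 6588 in the testes. Of 18 germline genes tested, 1 was higher, grk, and 1 lower, nanos, which had no call at a pseudocount of 40 (-0.56). Tracheal markers summed to 376 to 420 in the hindgut and 582 to 1401 in the trachea. Of 12 tracheal genes tested, 7 were higher, among them kni and bnl, and 1 was lower, vvl, with a log2 fold of -1.02. The part of attached tracheae was not tested. Fat body genes were 5 higher and 4 lower of 17. The yolk protein genes Yp1 and Yp3 were among those called higher, with log2 folds of 1.54 and 1.37. Yet Yp1 averaged 4509 in the hindgut and 4194 in the median of the other tissues. The fat body marker sum was 6225 to 6496 in the hindgut and 12104 to 16858 in the fat body.

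The 8 called genes with the largest decrease whose hindgut arrays lay below all arrays of at least 15 other tissues were CG4250, CG4822, CG4991, PPO2, CG1092, CG6330, CG1213 and santa-maria. PPO2, a prophenoloxidase of crystal cells, measured 16.3, 18.7, 4.53 and 20.8, with 2007 in the heart and a log2 fold of -2.34. santa-maria, a scavenger receptor for carotenoid uptake, averaged 31.8 in the hindgut and 1594 in the eye, a log2 fold of -2.08. CG4250 had the largest decrease of these 8, with a hindgut mean of 28.0, against 3750 in the heart and a median tissue mean of 263. CG4822 averaged 17.7 ± 4.02 in the hindgut (SD, n = 4) and 1769 in the wings, CG4991 13.4 in the hindgut and 1305 in the ovary, CG1092 5.35 in the hindgut and 706 in the trachea, and CG6330 32.7 in the hindgut and 865 in the ganglion. Their log2 folds lay between -2.69 for CG4822 and -2.17 for CG6330. Cell cycle genes gave no call in 18 tested. Of 66 respiratory chain and ATP synthase genes, 2 were higher (3.03%) and 2 lower, against 12.7% and 6.21% of all genes.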

How the data were processed

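Signals were deposited by the authors as intensity on a linear scale, 1 value per probe set and array, with the trimmed mean of every array near 100.0 (2% cut at each end). The software, background correction and summary method are not given in the sources used here. No count or depth exists for such data, and the number of arrays, 4 per tissue, limits the precision.

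Each array was scaled to a trimmed mean of 100.0. Of 18952 probe sets, 183 controls were left out. Of the 18769 others, 13646 had 1 gene symbol, 402 several and 4721 none in the array annotation, and 13543 of the probe sets with 1 symbol were joined through the gene table of assembly Release 6 plus ISO1 MT. A gene was its brightest probe set with 1 symbol, which gave 11981 genes.

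Values were analysed as log2(signal + 10), 10% of the trimmed mean, so folds of low genes are compressed. limma 3.58.1 in R 4.3.3 fitted 78 adult arrays of 20 tissues, and the hindgut mean was tested against the unweighted mean of the 19 other group means. Summaries were made in Python 3.11.15. Probe sets entered at or above the 40th percentile in the hindgut or in the mean of the others. A call needed a Benjamini-Hochberg adjusted p below 0.05 and at least 2-fold. A gene above every other tissue passed 19 one-sided contrasts. The larval fit was made alike. The test was checked on simulated data.

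Genes named in the text were drawn from the 20 with the largest excess over the next tissue and the 15 with the largest fold. Also drawn on were the 8 with the largest decrease and the specification factors. Every other list gave up to 4 higher, 2 lower and 2 uncalled members. Not every gene given by these rules appears in the text, but counts of named genes include them where tested. Further genes are those said to be picked after their values were seen or named for their place. Cell type markers are named as well. Genes, lists and rules were chosen with earlier results of these data known. Of the 23 lists, older symbols were matched by hand. No pairing was used: residuals of arrays with equal replicate numbers correlated between -0.085 and 0.065, and in 0 of 19 tissues was every such pair above 0.1.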

Additional observations from a re-analysis of the deposited data

Results flagged for a closer look

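Within the 4 hindgut arrays, 14 of 198 named genes had 1 array far from the other 3, where chance flags about 1 in 20. The gap to the nearest array, as a share of the range, exceeded Dixon's 95% critical value. The high arrays measured 576 for CG42269, 112 for Pdfr, 90.9 for Drs, 86.4 for Def, 24.2 for srp, 164 for bnl, 6.67 for COX5BL, 506 for Cyp301a1, 281 for Cyp4aa1, 1.70 for brp and 6.26 for Mst87F. The low arrays measured 11.7 for CG4822, 292 for drm and 2.09 for kumpel. Of 23 further genes picked after their values were seen, 2 had a high array, 748 for Alp2 and 1652 for ringer. COX5BL, brp, Mst87F and kumpel lie below 10 in every hindgut array.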

How the results depend on the processing

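No call reversed its direction in any alternative run. Genes without a call could change sign. The log2 fold of DptB ran from -0.74 to 0.29, that of PGRP-SB1 from -0.87 to 0.09 and that of Cyp4g1 from -0.59 to 0.69. Adult higher probe sets numbered 1458, and 987 to 1802 under settings other than leaving out 1 array. Lower probe sets numbered 682 at 10%, 1044 at 2% and 320 at 40% of the trimmed mean, and the larval ones 354, 618 and 143. Larval higher probe sets numbered 1313 and, at 40%, 871. With the filter at the 60th percentile 235 larval probe sets were lower. Probe sets above every other tissue numbered 106, 52 with a 4-fold excess required, and 264 without the midgut. Leaving out 1 array at a time gave 1444 to 1460 adult probe sets higher, 668 to 701 lower and 103 to 108 above every other tissue, 1306 to 1314 larval ones higher and 334 to 357 lower, 17 to 18 lists with more members higher than lower, and 104 to 105 named genes higher and 31 to 34 lower. The arrays left out were all those of the fit for adult probe sets, the 4 hindgut arrays for lists and named genes, and the 4 larval hindgut arrays for larval counts. The share of calls that were higher was 68.1%, and between 63.3% and 75.5% under other scalings and pseudocounts. With the replicate block the count above every other tissue stayed at 106 and no named call changed. Of 198 named genes, 20 lost their call at 40%, and at 2% 2 lost theirs and 10 gained one. Called folds moved by over 1.5 times for 66 of them at 2% and 80 at 40%. Of 23 genes named outside the rule, ppk12 and CG31371 lost their calls at 40%, with log2 folds of 0.77 and 0.94, and Mtk its call as lower with only 1 round of amplification or without hindgut array 4. In the fit of adult against larval hindgut the calls for en, inv, hh and Dr held in each of 12 settings, all added after the data were seen, with en between -5.37 and -2.64 and inv between -4.42 and -1.44. Signals near 10 are close to background, and differences between genes at that level are not resolved.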

Other observations

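Antimicrobial peptide genes were uneven between hindgut arrays. Across arrays 1 to 4, Mtk measured 88.4, 246, 51.3 and 26.4, DptB 91.4, 163, 112 and 22.5, and CecB 30.1, 17.1, 36.6 and 10.2. PGRP-SB1 measured 202, 207, 105 and 61. Array 4 was the lowest for each of these 4 genes.

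Cyp4g1, a P450 of oenocytes, also varied, at 264, 167, 37.6 and 676 in the 4 hindgut arrays.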
